A study of Gallus gallus with 6 samples.

Results

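The miR-146 family was followed around hatching in the leg muscle of Gallus gallus chickens of the Xinghua breed. Members were taken by name, as every row called miR-146a, miR-146b or miR-146c of either arm, which gave 6 of the 846 entries in the deposited tables. The 6 are gga-miR-146a-5p and gga-miR-146a-3p, gga-miR-146b-5p and gga-miR-146b-3p, and gga-miR-146c-5p and gga-miR-146c-3p, written below without the species prefix. The family was chosen by an earlier result of these libraries, the counts of miR-146a and miR-146b before hatching (embryonic day 16) and after it (day 1). Values of that pair of ages are therefore given as a description, without a p-value.

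Small RNA was sequenced from leg muscle labelled female. It came from embryos of day 11 (E11) and day 16 (E16) and from chicks 1 day post hatch (P1). There were 2 samples of each age. By their labels all samples share breed, sex and tissue, and their RNA was treated with RNase R and depleted of ribosomal RNA. miR-2954, a Z-linked and male-biased miRNA, had 15342 counts in the second P1 library. The first P1 library held 1014, the E16 libraries 507 and 402, and the E11 libraries 105 and 217. The female label of the second P1 library is therefore uncertain, and the part of sex in the P1 values was not tested. No mutation, transgene or treatment of the birds is named. Whether the 2 samples of an age are separate animals is not in the labels, so a p-value covers only the spread between samples, and this may be technical. Library totals ran from 303556 counts in the first E11 library to 2641042 in the first P1 library, and both E11 libraries were shallower than the other 4, so rare members were measured least precisely there. Levels are TMM-normalized CPM, a scaling of counts to a common total that adjusts for differences in composition between libraries. The tissue label was checked against striated muscle miRNAs (miR-1, miR-133, miR-206 and miR-499). Their summed level lay between 8846 and 11388 CPM in the E11 libraries, between 70787 and 77569 CPM in E16 muscle, and between 137510 and 191570 CPM at P1. Muscle miRNAs were thus detected in every library, and no row named miR-208 was analysed here. Epithelial miRNAs, listed below, summed to 10453 and 10289 CPM in the E11 libraries, about as much as the muscle miRNAs there. At later ages their sum lay between 38.4 and 1135 CPM. The part of tissue composition in differences from E11 was not tested.

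In mammals miR-146a and miR-146b are induced by NF-kB downstream of Toll-like and cytokine receptors, and they repress the signalling adaptors TRAF6 and IRAK1, which closes a negative feedback loop on inflammation. The 5p arm is the main mature product and carries the seed that miR-146a and miR-146b share, while the 3p arm is the partner strand of the hairpin. miR-146c is a further locus annotated in chicken. The 3 loci each matched 1 gene in the RefSeq table of the assembly GRCg7b. MIR146A lies wholly inside a long non-coding RNA gene and between the coding genes ATP10B, a phospholipid-transporting ATPase, and PTTG2, a securin-type gene. MIR146B overlaps an uncharacterised coding gene, with SLF2, a genome maintenance factor, as the nearest coding neighbour on one side. MIR146C-1 lies wholly inside DDRGK1, which encodes an adaptor of the UFM1 conjugation system. The table gives no strand, and its build differs from the galGal4 named in the submitters' processing notes, so no coordinates are given.

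miR-146c-5p was by far the most abundant member. It had 19247 and 8389 CPM in E11 muscle, 8488 and 8684 CPM in E16 muscle, and 8477 and 8003 CPM in P1 muscle. In TMM-normalized CPM the first E11 library stood alone, and the other 5 lay within a narrow band. The cartilage miRNA miR-140 also stood apart there, with a sum over both arms of 917 CPM in the first E11 library, 147 CPM in the second and between 49.6 and 115 CPM in the E16 and P1 libraries, and its part in the miR-146c-5p value was not tested. Epithelial markers (miR-205, miR-203, miR-429 and miR-200) had summed levels of 10453 and 10289 CPM in the E11 libraries and between 38.4 and 1135 CPM later. Single epithelial markers differed between the E11 libraries in opposite directions, with 6408 and 3552 CPM for miR-205a but 254 and 1731 CPM for miR-429-3p. Among entries with a miRBase-style name, miR-146c-5p ranked 6 and 11 by counts at E11, 13 in both E16 libraries and 16 in both P1 libraries. Its reads were also listed under a provisional identifier, 4_27031, whose counts differed from those of miR-146c-5p by at most 0.961% in any library. miR-146c-5p and that entry are therefore not separate measurements, and library totals hold these reads under both names.

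**Figure D1:**
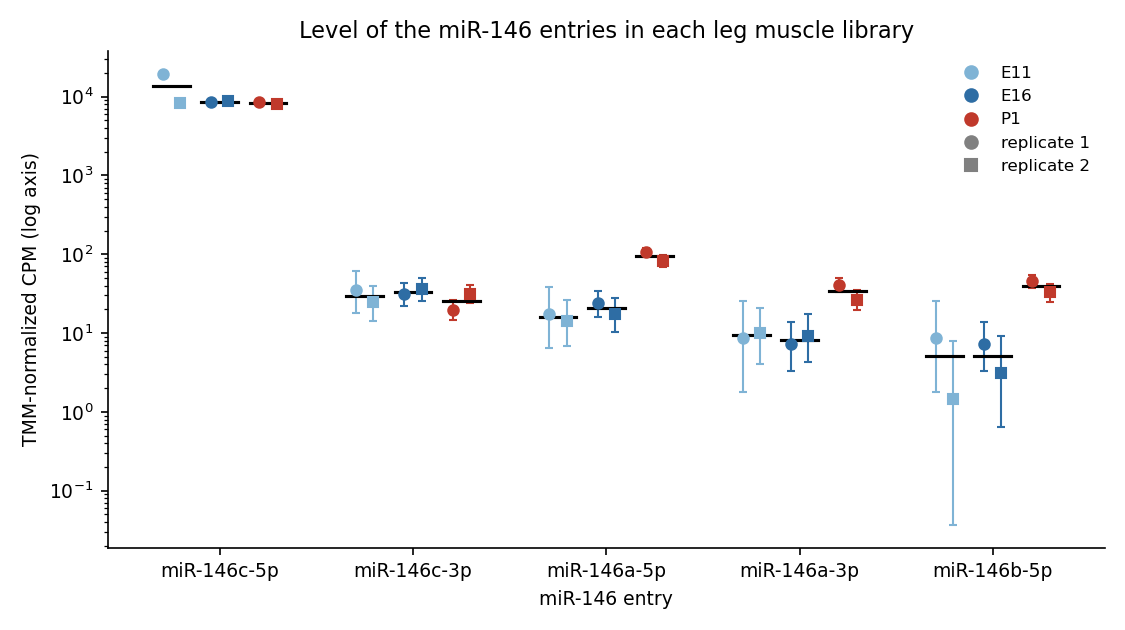
TMM-normalized CPM (log axis) of the 5 miR-146 entries that entered the tests, at E11, E16 and P1. Circles are replicate 1 and squares replicate 2, bars are exact 95% Poisson intervals for counting error only, and black lines are means of 2 libraries. miR-146a-5p had 106 and 82.0 CPM at P1, while miR-146c-5p lay between 8003 and 8684 CPM in every library except the first E11 library at 19247 CPM.

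miR-146a-5p was detected in every library at a low level. It had 6 and 10 counts in E11 muscle, 30 and 17 counts in E16 muscle, and 246 and 145 counts at P1. In CPM these were 17.5 and 14.4 in E11 muscle, 24.0 and 17.6 in E16 muscle, and 106 and 82.0 at P1. Both P1 libraries lay above all 4 embryonic ones, a description, since counts at P1 and E16 chose the family. The 95% Poisson intervals of the P1 libraries ran from 69.2 to 120.2 CPM over both. Counting intervals here and below do not cover differences between samples, and reads without molecular identifiers are not independent molecules.

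miR-146a-3p, the partner arm from the same hairpin, was also highest at P1. It had 3 and 7 counts in E11 muscle, 9 in each E16 library, and 95 and 47 at P1. These correspond to 8.76 and 10.1 CPM in E11 muscle, 7.19 and 9.29 CPM in E16 muscle, and 41.0 and 26.6 CPM at P1. The P1 libraries again lay above every embryonic library.

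miR-146b-5p, the product of the second locus, was rarer in the embryo. It had 3 and 1 counts in E11 muscle, 9 and 3 counts in E16 muscle, and 105 and 58 counts at P1, or 8.76 and 1.44 CPM, 7.19 and 3.10 CPM, and 45.3 and 32.8 CPM at those ages. The E11 and E16 libraries overlapped, and both P1 libraries lay above them. miR-146b-3p was listed in 1 library only, the second P1 library, with 2 counts. Its count of 0 in the other libraries allows a level of up to 8.76 and 4.33 CPM in E11 muscle, 2.40 and 3.10 CPM in E16 muscle, and 1.29 CPM in the first P1 library (3 counts of each library's effective size), so no difference could be detected for it, and it did not pass the filter on low counts.

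miR-146c-3p was a minor product at all ages. It had 35.0 and 24.5 CPM in E11 muscle, 31.2 and 36.1 CPM in E16 muscle, and 19.8 and 31.7 CPM at P1, from 12 to 56 counts per library. The 3 ages overlapped. In mean CPM at P1, the order was miR-146c-5p at 8240 ± 335, miR-146a-5p at 94.0 ± 17.0, miR-146b-5p at 39.0 ± 8.82, miR-146a-3p at 33.8 ± 10.2 and miR-146c-3p at 25.7 ± 8.36 (SD, n = 2 each). Among the last 3, the libraries of miR-146a-3p overlapped those of miR-146b-5p and those of miR-146c-3p. Both libraries of miR-146b-5p, at 45.3 and 32.8 CPM, lay above both of miR-146c-3p, narrowly for replicate 2. At E16 the means were 8586 ± 138 for miR-146c-5p, 33.7 ± 3.52 for miR-146c-3p, 20.8 ± 4.54 for miR-146a-5p, 8.24 ± 1.49 for miR-146a-3p and 5.15 ± 2.90 for miR-146b-5p. At E11 they were 13818 ± 7678 for miR-146c-5p, 29.8 ± 7.45 for miR-146c-3p, 15.97 ± 2.20 for miR-146a-5p, 9.43 ± 0.940 for miR-146a-3p and 5.10 ± 5.18 for miR-146b-5p. At both embryonic ages miR-146a-3p and miR-146b-5p did not differ beyond their spread. miR-146a-5p thus stood above miR-146c-3p at P1 and below it at both embryonic ages.

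The contrast between miR-146a or miR-146b and miR-146c-5p was read within each library, where no scaling between libraries is needed. Per 100 reads of miR-146c-5p there were 0.0910 and 0.172 reads of miR-146a-5p at E11, 0.282 and 0.202 in E16 muscle, and 1.25 and 1.02 at P1. The exact 95% intervals at P1, for counting error only, were 1.099 to 1.42 and 0.863 to 1.21. For miR-146b-5p the values were 0.0455 and 0.0172 in E11 muscle, 0.0847 and 0.0357 in E16 muscle, and 0.534 and 0.410 at P1. miR-146a-3p had 0.0455 and 0.120 in E11 muscle, 0.0847 and 0.107 in E16 muscle, and 0.483 and 0.332 at P1. Ratios of these 3 members to miR-146c-5p were higher in both P1 libraries than in any embryonic library. Counts at P1 and E16 chose the family, so this separation is a description. miR-146c-3p, from the same hairpin as miR-146c-5p, had 0.182 and 0.292 in E11 muscle, 0.367 and 0.416 in E16 muscle, and 0.234 and 0.396 at P1, with no such separation.

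**Figure D2:**
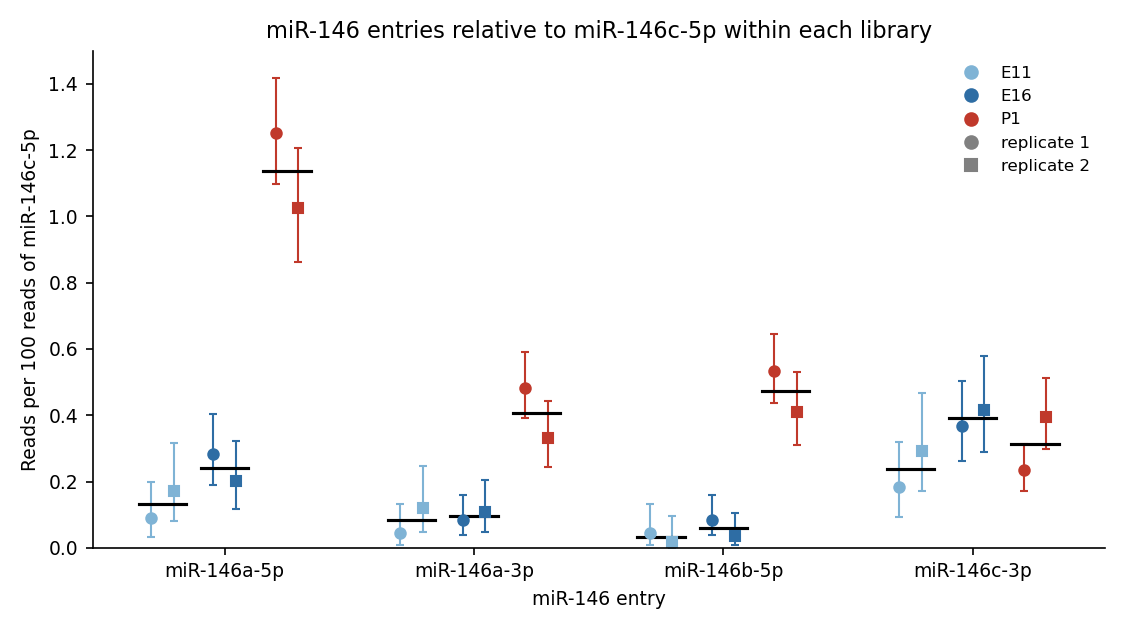
Reads of miR-146a-5p, miR-146a-3p, miR-146b-5p and miR-146c-3p per 100 reads of miR-146c-5p in the same library, at E11, E16 and P1. Circles are replicate 1 and squares replicate 2, bars are exact 95% binomial intervals for counting error only, and black lines are means of 2 libraries. miR-146a-5p stood at 1.25 and 1.02 at P1 and at no more than 0.282 in any embryonic library.

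Expressed as a mean log2 ratio to miR-146c-5p, miR-146a-5p stood at -6.47 at P1 and -8.71 at E16, a difference of 2.24, or 4.74-fold. miR-146b-5p stood at -7.74 at P1 and -10.83 at E16, a difference of 3.09, or 8.51-fold. Leaving out either library of either age gave differences between 2.00 and 2.49 for miR-146a-5p and between 2.46 and 3.71 for miR-146b-5p, whose E16 libraries held 9 and 3 reads. Without E16 replicate 1 the miR-146b-5p difference was 3.71, and without E16 replicate 2 it was 2.46. The 5p arms of these miRNAs are close in sequence, and the sources used here do not give how a read that matches more than 1 of them was counted. Whether such reads moved between members was not tested.

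Despite the differences in its rarer members, the family as a whole was set by miR-146c-5p. This miRNA took 99.6% and 99.4% of all miR-146 reads at E11, 99.2% in each E16 library, and 97.6% and 97.9% at P1. miR-146a and miR-146b together took 0.181% and 0.307% of miR-146 reads at E11, 0.448% and 0.342% in E16 muscle, and 2.21% and 1.74% at P1. Their summed level was 35.0 and 26.0 CPM in E11 muscle, 38.4 and 29.9 CPM in E16 muscle, and 192 and 142 CPM at P1. The summed level of the family was 19317 and 8440 CPM in E11 muscle, 8558 and 8750 CPM in E16 muscle, and 8689 and 8178 CPM at P1. One P1 total lay inside the E16 range and the other below it. This order depended on the scaling. As shares of unscaled library totals the family had 0.890% and 0.893% at E16, and 0.763% and 0.657% at P1, lower in both P1 libraries.

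In the reads as assigned, the balance of arms differed between loci, a measure that did not enter the choice of members. How reads matching several of the 5p arms were counted is not given, and their part in these shares was not tested. The 3p arm made up 27.9% (exact 95% interval 23.2 to 32.9) and 24.5% (18.6 to 31.2) of miR-146a reads in the P1 libraries, and 23.1% (11.1 to 39.3) and 34.6% (17.2 to 55.7) in the E16 libraries. At E11 the shares were 33.3% and 41.2% of only 9 and 17 reads, with intervals from 7.49 to 70.1 and from 18.4 to 67.1. All 6 intervals overlapped, so no difference between ages in the arm balance of miR-146a was detectable at this depth. For miR-146c the 3p arm made up between 0.182% and 0.414% of reads in the 6 libraries. For miR-146b it made up 2 of 165 reads at P1, which is 1.21% (0.147 to 4.31). In reads summed over all libraries the 3p share was 27.2% (23.8 to 30.9) for miR-146a, against 1.105% (0.134 to 3.93) for miR-146b and 0.313% (0.272 to 0.359) for miR-146c, and in no single library did the share of miR-146c reach the lower bound of miR-146a. Among the 5p reads of miR-146a and miR-146b together, miR-146b-5p took 29.9% (25.2 to 35.0) and 28.6% (22.5 to 35.3) in the P1 libraries. At E16 it took 23.1% (11.1 to 39.3) of 39 reads and 3 of 20 reads (3.21 to 37.9), intervals that overlap those at P1.

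The comparison of P1 with E16 spans hatching and was the one by which the family was picked out, so its fitted values are a description. The log2 fold change was 2.17 (SE 0.48) for miR-146a-5p, 2.03 (SE 0.51) for miR-146a-3p and 2.87 (SE 0.72) for miR-146b-5p. miR-146c-5p had -0.06 (SE 0.42) and miR-146c-3p -0.39 (SE 0.49). Summed counts, divided by summed effective library sizes, gave ratios of 4.52 for miR-146a-5p, 4.28 for miR-146a-3p and 7.37 for miR-146b-5p, again as a description. The corresponding ratio for miR-146c-5p was 0.965, and its P1 libraries lay just below its E16 libraries. Without scaling factors its log2 fold change was -0.35 (SE 0.41), in a fit where the median of all entries shifted by -0.30. Of the 5 tested members, 3 had both P1 libraries above both E16 libraries, as did 26.3% of the 289 tested entries, and 1 had both below, as did 24.9%. Counts at P1 and E16 chose the family, and miR-146b-5p passed the filter on low counts only through the P1 libraries. Nothing is therefore read from the members' counts against those shares. Tested by quasi-likelihood in edgeR and adjusted by Benjamini-Hochberg, 0 of 289 entries passed, a background of 0%. At an unadjusted p under 0.05 it had 37 (12.8%), DESeq2 called 2 (0.692%) and limma called 0. In the 6 fits without 1 library the fitted value of miR-146b-5p lay between 2.33, without E16 replicate 2, and 3.56, without E16 replicate 1. Those of miR-146a-5p and miR-146a-3p lay between 1.60 and 2.36.

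**Figure D3:**
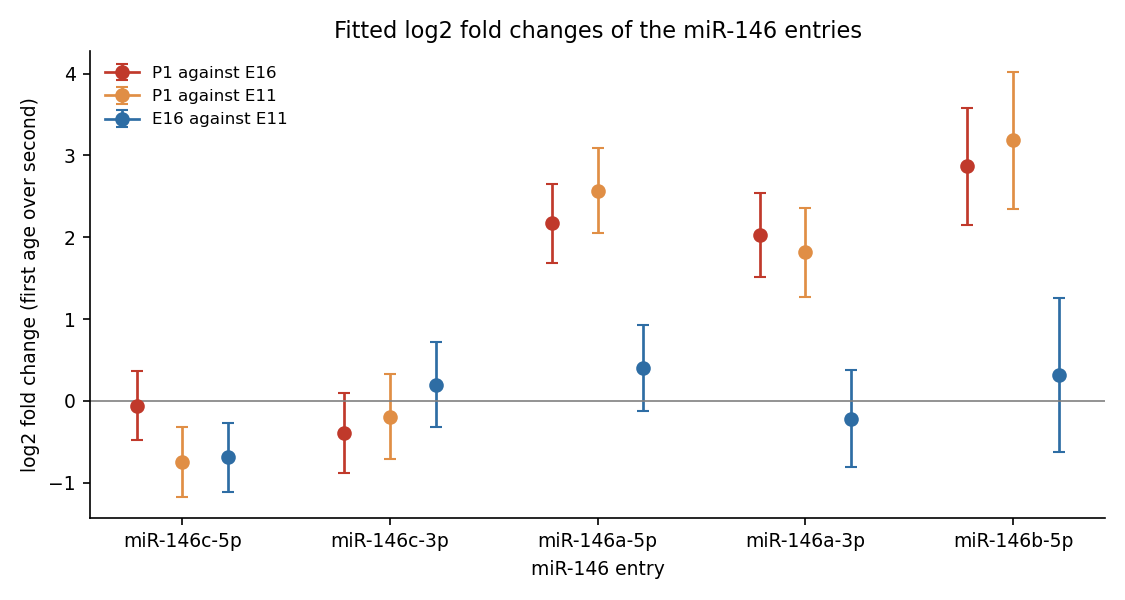
Fitted log2 fold changes of the 5 tested miR-146 entries for P1 against E16, P1 against E11 and E16 against E11, with 2 libraries of each age. Points are edgeR estimates and bars are 1 standard error. The 3 entries of miR-146a and miR-146b lie between 1.81 and 3.18 in both comparisons with P1 and between -0.22 and 0.40 in E16 against E11.

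The comparison of P1 with E11 uses the same P1 libraries, so it is not independent of the choice of members. miR-146a-5p rose 5.94-fold at P1 (log2 fold change 2.57, SE 0.52, edgeR Benjamini-Hochberg adjusted p = 0.0177) and miR-146a-3p rose 3.52-fold (1.81, SE 0.55, adjusted p = 0.0443). miR-146b-5p had a log2 fold change of 3.18 (SE 0.84), given without a p-value because it passed the filter on low counts only through the P1 libraries, with 1 embryonic library at the minimum level where 2 libraries are needed. Both P1 libraries were above both E11 libraries for these 3 members. miR-146c-3p had -0.19 (SE 0.52, adjusted p = 0.810) and miR-146c-5p -0.75 (SE 0.42, adjusted p = 0.223), and neither passed. Of all 289 entries 14.2% were called higher and 16.3% lower, 30.4% in all, and for 30.4% both P1 libraries were above both E11 libraries. Since P1 values picked out the family, nothing is read from the members' share against these. DESeq2 and limma also called miR-146a-5p but not miR-146a-3p, with 33.6% and 26% of entries called. Without scaling factors 20 entries were higher and 64 lower, in place of 41 and 47, and the median of all entries shifted by -0.47 on the log2 scale. The ratio of summed counts was 10.3 for miR-146b-5p, with 163 counts at P1 and only 4 at E11, so its size is imprecise.

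These calls depended on the full set of libraries. miR-146a-5p kept its call in 1 of the 6 fits without 1 library, the one without P1 replicate 2, and its adjusted p lay between 0.0502 and 0.0691 in the others. miR-146a-3p was called in 0 of these 6 fits with edgeR, with adjusted p from 0.104 to 0.237. The log2 fold change of miR-146b-5p was 4.74 without E11 replicate 1 and 2.13 without E11 replicate 2. For miR-146c-5p the first E11 library decided the value, which was 0.03 in the fit that left out E11 replicate 1 (adjusted p = 0.952) and -1.25 in the fit that left out E11 replicate 2 (adjusted p = 0.0285).

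The comparison of E16 with E11 covers embryonic growth, and shares its E16 libraries with the comparison that picked out the family. Of the 5 tested members 0 passed in edgeR, against a background of 6.57% of entries, and 0 had an unadjusted p under 0.05, against 24.2%. DESeq2 and limma also called 0 of the 5, against 13.1% and 5.88% of entries. The 5 include miR-146b-5p, which passed the filter on low counts only through the P1 libraries. Nothing is therefore read from these counts against the background. For 1 member, miR-146a-5p, both E16 libraries were above both E11 libraries, as for 27.3% of entries. That separation was nearly a tie, at 17.52 CPM in E11 replicate 1 and 17.55 CPM in E16 replicate 2, from 6 and 17 counts. As shares of the unscaled library totals their order was reversed, at 0.00198% and 0.00179%. The edgeR log2 fold change was 0.40 (SE 0.53, adjusted p = 0.681) for miR-146a-5p and -0.22 (SE 0.59, adjusted p = 0.878) for miR-146a-3p. For miR-146b-5p it was 0.31 (SE 0.94), again given without a p-value because of the filter. miR-146c-5p had -0.69 (SE 0.42, adjusted p = 0.355), which became 0.15 without E11 replicate 1 and -1.18 without E11 replicate 2. miR-146c-3p had 0.20 (SE 0.52, adjusted p = 0.875). The counts of miR-146b-5p, 12 at E16 and 4 at E11, gave a ratio of 1.40 (95% counting interval 0.424 to 5.96), so a change several-fold in size would not have been detectable for it.

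The named miRNAs with the most similar profiles were sought among the 194 named tested entries outside the family, by the root mean square difference of log2 CPM centred on each entry's own mean over the 6 libraries. Nearest to miR-146a-5p were miR-23b-3p (0.45), miR-24-3p (0.46), miR-144-5p (0.48) and miR-30e-5p (0.54), against a median of 1.28 over all candidates. miR-24-3p, encoded in clusters with miR-23 and miR-27, had 339 and 275 CPM in E11 muscle, 305 and 309 CPM in E16 muscle, and 943 and 738 CPM at P1. Its level was nearly the same in the 4 embryonic libraries and higher in both P1 libraries. miR-23b-3p, from one of these clusters, had 38.0 and 43.3 CPM in E11 muscle, 72.7 and 68.2 CPM in E16 muscle, and 158 and 161 CPM at P1. No candidate was as near to miR-146a-5p as its own partner arm miR-146a-3p (0.42), and 13 of 194 were nearer to it than miR-146b-5p (0.69). These members were chosen together by their counts, so their nearness is not a separate result.

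Nearest to miR-146b-5p were miR-144-5p (0.78), miR-451 (0.92), miR-2188-5p (0.93) and miR-24-3p (1.00), against a median of 1.72. Of these, miR-144 and miR-451 are abundant in red blood cells. No candidate was as near to it as miR-146a-5p (0.69). Nearest to miR-146c-5p were miR-125b-3p (0.18), miR-106-3p (0.19), miR-103-3p (0.23) and miR-107-3p (0.26), against a median of 0.81. miR-103-3p had 13330 and 7113 CPM in E11 muscle, 5025 and 5454 CPM in E16 muscle, and 4410 and 4527 CPM at P1, with the first E11 library highest, as for miR-146c-5p. Of the 194 candidates, 113 were nearer to miR-146a-5p than miR-146c-5p was (1.35). miR-146a and miR-146b were chosen by their counts at P1 and E16. Their nearness to each other and distance from miR-146c-5p are therefore not separate from that choice. The embryonic profile of miR-146b-5p rests on at most 9 reads per library. All these likenesses rest on 6 libraries of 3 ages and describe shape only.

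**Figure D4:**
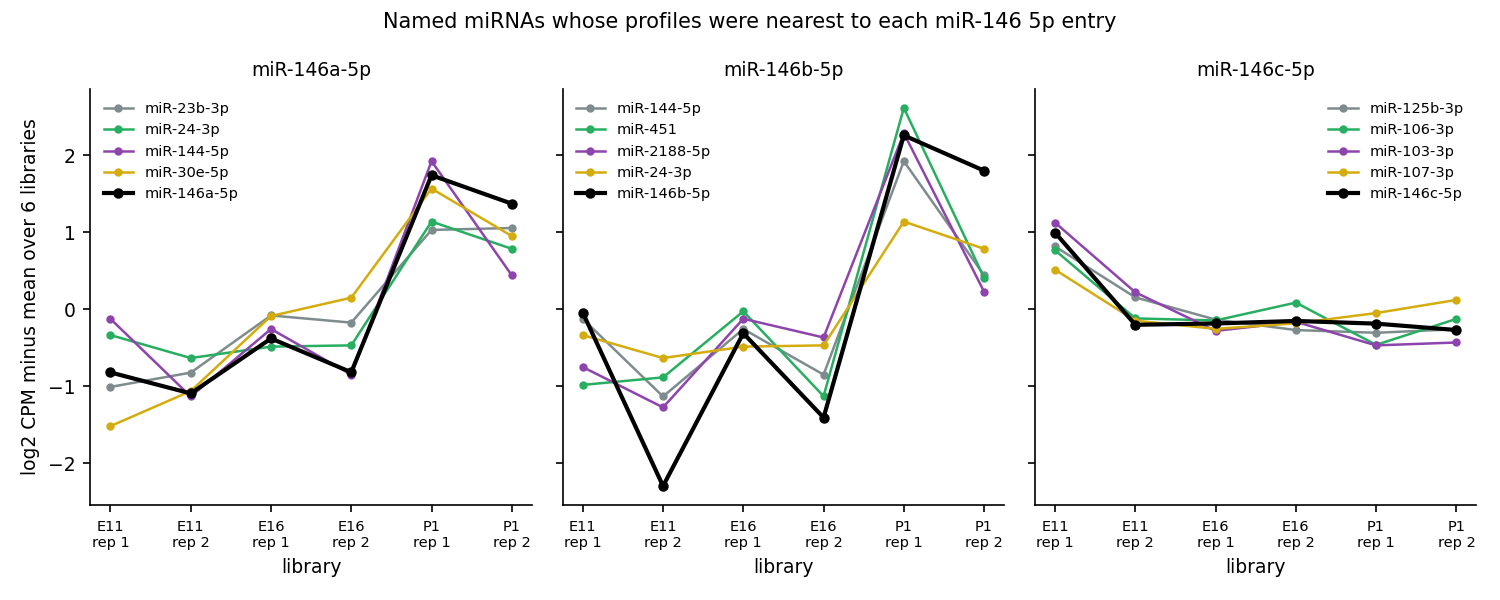
Log2 CPM minus its mean over the 6 libraries for miR-146a-5p, miR-146b-5p and miR-146c-5p (black) and the 4 named miRNAs nearest to each (colours), by library. Lines only join the libraries of a miRNA, and replicates have no order. miR-146a-5p and miR-146b-5p are high in both P1 libraries, while miR-146c-5p and its 4 neighbours are highest in the first E11 library.

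The list of other miRNAs known to respond to inflammatory signals held miR-155, miR-21, miR-147, miR-9, miR-125b and miR-34a, with 10 rows listed and 7 tested, while no row named miR-132 or miR-212 was analysed here. With edgeR 0 of the 7 were called at P1 against E16, beside 0% of all entries, 0 at P1 against E11, beside 30.4%, and 0 at E16 against E11, beside 6.57%. At an unadjusted p under 0.05 there were 0 of the 7 in each comparison, beside 12.8%, 43.6% and 24.2% of entries. DESeq2 called 0 of the 7 in each comparison, beside 0.692%, 33.6% and 13.1% of entries. With limma 1 was called, at P1 against E11, beside 26%. The list's median log2 fold change was 0.04 at P1 against E16, beside 0.09 over all entries, -0.22 at P1 against E11, beside -0.15, and -0.48 at E16 against E11, beside -0.03. The list was not split by direction of response. At P1 against E11 its single values ran from -1.48 (SE 0.76) for miR-9-3p to 1.56 (SE 0.74) for miR-34a-5p. miR-21-5p, its most abundant row, averaged 3564 ± 224 CPM in E11 muscle, 4980 ± 356 CPM in E16 muscle and 5122 ± 382 CPM in P1 muscle (SD over 2 libraries). miR-125b-5p had 2591 ± 1013, 1727 ± 424 and 2230 ± 70.3 CPM, and miR-125b-3p 1869 ± 596, 1131 ± 75.2 and 1069 ± 24.4 CPM, at the same ages. miR-155, which like miR-146a is induced downstream of Toll-like receptors in mammals, had at most 1 count in any library. miR-147 had 3 and 2 counts in the P1 libraries and 0 in the embryonic ones, at 1.29 and 1.13 CPM, below the 2.40 CPM or more that a count of 0 allows in each embryonic library.

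Marker lists for blood and vessel cells were read next. At P1 against E16 edgeR called 0 of 3 leukocyte, 0 of 3 erythroid and 0 of 2 endothelial rows, beside 0% of all entries. DESeq2 and limma also called 0 of each list, beside 0.692% and 0% of entries. At an unadjusted p under 0.05 in edgeR there were 0, 2 and 0 rows, beside 12.8% of entries. At P1 against E11 edgeR called 1 leukocyte, 1 erythroid and 2 endothelial rows, all higher, beside 14.2% of entries called higher. Of the tested rows of these lists DESeq2 called 1, 3 and 2, beside 33.6% of entries, and limma 0, 0 and 1, beside 26%. The leukocyte list without miR-146 held 4 rows, of which miR-223 and both arms of miR-142 were tested, and no row named miR-150 was analysed here. Its summed level was 90.5 and 164 CPM in E11 muscle, 294 and 215 CPM in E16 muscle, and 804 and 255 CPM at P1. The P1 library with the higher sum, replicate 1, was also the higher of the pair for miR-146b-5p and both arms of miR-146a. In P1 replicate 2 the leukocyte sum lay between the E16 values. In that library miR-146a and miR-146b together had 142 CPM, against 38.4 and 29.9 CPM at E16. In edgeR miR-142-5p rose at P1 against E11 (log2 fold change 2.40, SE 0.71, adjusted p = 0.0432), and the other 2 did not pass.

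The red blood cell markers miR-144 and miR-451, with 3 of 3 rows tested, summed to 3073 and 3358 CPM in E11 muscle, 6067 and 2796 CPM in E16 muscle, and 34745 and 7739 CPM at P1. Both P1 libraries were above all embryonic ones, and replicate 1 was the highest of the 6 libraries. In edgeR miR-451 rose at P1 against E11 (log2 fold change 2.83, SE 0.74, adjusted p = 0.0318), and the arms of miR-144 did not pass (adjusted p = 0.0881 and 0.0769). The endothelial list, both arms of miR-126, summed to 13759 and 18540 CPM in E11 muscle, 46480 and 36903 CPM in E16 muscle, and 57389 and 74179 CPM at P1. Within the P1 pair its order was opposite to that of miR-146a and miR-146b. In bulk tissue, more cells of a type and more RNA per cell cannot be told apart. The part of blood or vessel cells in the miR-146a and miR-146b values was not tested. P1 replicate 1 had the highest leukocyte and erythroid sums. Its epithelial sum was 1135 CPM, against 38.4 CPM in P1 replicate 2, and the part of epithelial cells was not tested either. Without P1 replicate 1 the log2 fold change at P1 against E16 was 1.89 for miR-146a-5p, 1.60 for miR-146a-3p and 2.54 for miR-146b-5p. The only P1 library left in that fit had an erythroid sum of 7739 CPM, still above all embryonic libraries.

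**Figure D5:**
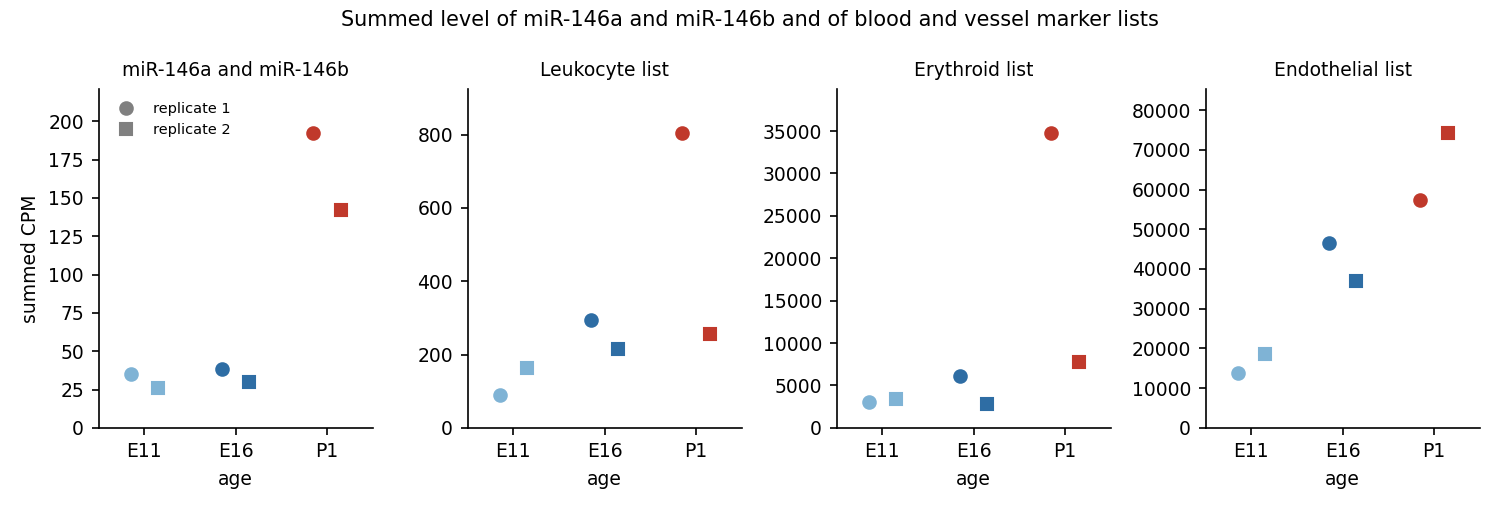
Summed TMM-normalized CPM of miR-146a and miR-146b, of the leukocyte list without miR-146, of the erythroid list and of the endothelial list, by age. Each point is 1 library, circles are replicate 1 and squares replicate 2, and each panel has its own axis from 0. At P1 miR-146a and miR-146b stood at 192 and 142 CPM, the leukocyte list at 804 and 255 CPM and the erythroid list at 34745 and 7739 CPM.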

How the data were processed

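Each deposited table held 1 library and listed whole numbers per mature miRNA. The authors' file headers call the column FPKM, but values were whole, 1 was the most frequent, and totals differed, so they were used as counts. If they are rounded FPKM, count tests are unsuitable, and the limma fit applies. Only values of at least 1 were listed, so a missing miRNA was given 0. Per the submitters' processing notes, which state no role or version, Trim Galore, Bowtie, TopHat, Cufflinks and galGal4 were used. The sources used here do not give how reads were assigned to miRNAs. RNase R treatment appears in the labels, and its bearing on miRNA libraries is unknown.

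Counts were fitted in R 4.3.3 with edgeR 4.0.16 over all 6 libraries, with 1 coefficient per age and 3 residual degrees of freedom. filterByExpr (minimum count 10, minimum total 15) left 289 entries, 5 of them miR-146, and libraries were scaled by TMM. Provisional identifiers, between 32.1% and 42.9% of a library's counts, stayed in totals and tests. Some closely repeat other named miRNAs, such as 7_32745 and miR-10b-5p, with 24777 and 25102 counts in the first E11 library. Shares over all entries therefore hold some miRNAs more than once. With named entries only, levels were higher, with a mean of 12889 CPM for miR-146c-5p at P1 in place of 8240 CPM. P-values are two-sided and Benjamini-Hochberg adjusted over all tested entries, with a threshold of 0.05. The SE is the log2 fold change divided by the square root of F. Intervals are exact Clopper-Pearson or Poisson at 95%. DESeq2 1.42.0 and limma 3.58.1 were alternatives. The limma fit used log2 of CPM plus 0.5, with CPM over raw library totals and without TMM. Only the edgeR fit was run on simulated counts, with a spread set lower than the one fitted here. Replicates differed by more than sampling noise and were kept separate.

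Members and lists were chosen with earlier results of these data known. Text names all miR-146 rows, rows sharing their reads, the 4 nearest profiles and the 3 most abundant rows of a context list, with others named after their values were seen.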

Additional observations from a re-analysis of the deposited data

How the results depend on the processing

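For miR-146b-5p and both arms of miR-146a the log2 fold changes at P1 against E16 and at P1 against E11 stayed positive in all 15 alternatives, but their libraries did not overlap, which says little about stability. At P1 against E11, miR-146a-5p passed in 10 of 15 and miR-146a-3p in 3. The limma fit also had no scaling factors, so it and the fit without scaling factors are not separate checks of scaling. miR-146a-3p lost its call without scaling factors (adjusted p = 0.0993), without a filter (0.0521), in DESeq2 (0.0805), in limma on log2 values (0.109), with only the 2 ages compared (0.0755) and with the replicate block (0.0849).

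Directions that turned belonged to uncalled values. At P1 against E11, miR-146c-3p had 0.095 without a filter and lay between -0.52 and 0.12 without 1 library, and miR-146c-5p lay between -1.25 and 0.034. At E16 against E11, miR-146a-3p had 0.066 without a filter, and without 1 library it lay between -0.20 and 0.023, miR-146b-5p between -0.75 and 1.92, miR-146c-3p between -0.077 and 0.58, and miR-146c-5p between -1.18 and 0.15. The cause was not tested.

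The number of entries called at P1 against E16, 0, became 13 without a filter, 2 in DESeq2, and 0 to 1 without 1 library. At P1 against E11, 88 became 28 with only the 2 ages, 30 with the replicate block, and 10 to 61 without 1 library. At E16 against E11, 19 became 46 without a filter, 38 in DESeq2, 12 with named entries only, and 0 to 11 without 1 library. Fits on fewer samples have fewer residual degrees of freedom. Deviations of same-numbered libraries correlated at 0.03 (E11 and E16), -0.02 (E11 and P1) and 0.30 (E16 and P1). Whether same-numbered libraries share anything beyond the number is not in the labels and was not tested. Scaling factors shifted the median of all entries, by -0.30 at P1 against E16 and -0.16 at E16 against E11 when left out.

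Adding the provisional row to miR-146c-5p lowered its mean log2 ratios by construction, to -10.64, -9.71 and -7.46 for miR-146a-5p and to -12.80, -11.83 and -8.74 for miR-146b-5p at E11, E16 and P1. The P1 minus E16 differences lay between 2.00 and 2.49 and between 2.46 and 3.71 without 1 library, an alternative chosen after seeing the data, as was the fit without the provisional row. With the largest difference in place of the root mean square, 3, 2 and 3 of the 4 nearest profiles of miR-146a-5p, miR-146b-5p and miR-146c-5p were shared. Of the 5 tested members, miR-146b-5p had the fewest reads at E11, 4.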
